A study of Mus musculus with 4 samples.

Results

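Axon guidance ligands and receptors are described here across the cell types of the mouse lateral septum (LS), a forebrain region between the lateral ventricles that takes part in affective and cognitive behavior. The genes were chosen by symbol: the semaphorins, plexins, Eph receptors, ephrins, Unc5 receptors, robos and slits, together with Nrp1, Nrp2, Dcc and Ntn1. This rule matched 71 of the 32285 genes of the count matrices, and 66 of them are guidance genes: 20 semaphorins, 9 plexins, 2 neuropilins, 6 genes of netrin and its receptors, 3 slits, 4 robos, 8 ephrins and 14 Eph receptors. The other 5 matched by their letters only (Unc50, Unc5cl and the antisense transcripts Plxna4os1, Plxna4os2 and Plxna4os3) and are left out of every count.

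Nuclei of frozen LS tissue were profiled by droplet-based single-nucleus RNA sequencing (snRNA-seq, 3' libraries) in 4 libraries, each of which pooled the LS of 3 male mice aged 6-8 weeks. The methods of the study give an age of 8 weeks at purchase. There were 2 libraries of wild-type C57BL/6JNifdc mice (C57J 1 and C57J 2), 1 of BALB/c nude mice (nude), which carry a Foxn1 knockout on a BALB/c background and lack mature T cells, and 1 of BALB/c mice. C57J 1 was sequenced in batch 1 and the other 3 libraries in batch 2. The study compares immune and genetic backgrounds, so both C57J libraries were set against nude and BALB/c together. Alleles of the strain and the immune state cannot be told apart in this contrast, because both non-C57J libraries share the BALB/c background.

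The libraries held 12558 to 17025 barcodes and 72912922 to 125998527 unique molecular identifiers (UMIs). After the quality limits and removal of predicted doublets, 10913 to 13075 nuclei remained per library, with a median of 4325 to 8413 UMIs per nucleus, and the BALB/c library was the deepest. Between 21 and 42 cell barcodes were shared by any pair of libraries (0.192% to 0.336% of the smaller library). Nuclei were clustered without the guidance genes and assigned by marker genes to 4 classes of neurons, namely LS neurons (21691 nuclei, marked by Trpc4 and Dgkg), GABAergic neurons marked by Elavl2 (4447), glutamatergic neurons marked by Slc17a6 (2403) and striatal neurons marked by Rarb and Pde10a (2797, of which 1252 came from C57J 1). The other classes were neuroblasts (653 nuclei), dividing cells (353), astrocytes (6429), oligodendrocyte precursor cells (OPCs, 1829), oligodendrocytes (OLs, 5287), microglia (1305) and 854 nuclei that carried astrocyte markers together with the ependymal gene Dnah12 and are called Dnah12 nuclei. Newly forming oligodendrocytes, marked by Bcas1, Enpp6 and Gpr17, made up 131 nuclei, of which 11 came from BALB/c. They are described without being ranked.

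Guidance cues were first known from the growing axon. Semaphorins bind plexins, and the secreted class 3 semaphorins do so mostly through the neuropilins. Netrin attracts axons through Dcc and repels them through the Unc5 receptors. Slits repel through the robos, and ephrins on one cell surface meet Eph receptor tyrosine kinases on the next. In the adult brain the same families act on synapses, on the migration of neuroblasts and precursor cells, and in the oligodendrocyte lineage.

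Promoter sequences are shown for 4 genes on which the results below turn, 3 with their highest level in the oligodendrocyte lineage (Sema3d, Plxnb3 and Unc5b) and the slit gene that differed between the backgrounds in LS neurons (Slit3). Sema3d lies at chr5:12383385-12588948, plus strand, Plxnb3 at chrX:73757090-73772514, plus strand, Unc5b at chr10:60762593-60831581, minus strand, and Slit3 at chr11:35121224-35708507, plus strand (GENCODE vM21, GRCm38). The promoters come from RefSeq (GRCm38.p6), run 5′ to 3′ on the strand of the gene from 250 bases before to 50 bases after its RefSeq start, and lie at chr5:12382916-12383215, plus strand (Sema3d), chrX:73756853-73757152, plus strand (Plxnb3), chr10:60831532-60831831, minus strand (Unc5b) and chr11:35121206-35121505, plus strand (Slit3). The RefSeq and GENCODE starts differ for some of these genes. The Sema3d window ends before its GENCODE start, and most of the Slit3 window lies after its GENCODE start. Capitals mark 3 motifs on either strand: the E-box CAGCTG, read by basic helix-loop-helix factors such as those of the Olig family, and ACAAAG and ACAATG, read by SOX factors, which include Sox10 of the oligodendrocyte lineage.
Sema3d: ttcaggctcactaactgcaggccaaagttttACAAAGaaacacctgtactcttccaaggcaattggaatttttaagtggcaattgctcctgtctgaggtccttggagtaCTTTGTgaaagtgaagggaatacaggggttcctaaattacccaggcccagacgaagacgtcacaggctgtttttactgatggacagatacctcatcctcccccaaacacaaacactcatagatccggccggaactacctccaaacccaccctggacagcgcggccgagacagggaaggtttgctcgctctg
Plxnb3: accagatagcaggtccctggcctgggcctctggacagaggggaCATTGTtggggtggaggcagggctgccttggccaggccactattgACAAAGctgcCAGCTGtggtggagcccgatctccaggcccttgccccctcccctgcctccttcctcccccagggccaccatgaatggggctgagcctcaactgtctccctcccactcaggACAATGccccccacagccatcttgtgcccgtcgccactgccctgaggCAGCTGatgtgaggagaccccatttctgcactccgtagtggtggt
Unc5b: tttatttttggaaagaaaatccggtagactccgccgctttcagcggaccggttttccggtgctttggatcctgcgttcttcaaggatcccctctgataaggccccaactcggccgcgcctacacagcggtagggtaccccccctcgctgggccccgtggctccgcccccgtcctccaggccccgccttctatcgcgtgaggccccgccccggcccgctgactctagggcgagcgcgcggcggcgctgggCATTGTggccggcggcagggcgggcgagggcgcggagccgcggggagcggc
Slit3: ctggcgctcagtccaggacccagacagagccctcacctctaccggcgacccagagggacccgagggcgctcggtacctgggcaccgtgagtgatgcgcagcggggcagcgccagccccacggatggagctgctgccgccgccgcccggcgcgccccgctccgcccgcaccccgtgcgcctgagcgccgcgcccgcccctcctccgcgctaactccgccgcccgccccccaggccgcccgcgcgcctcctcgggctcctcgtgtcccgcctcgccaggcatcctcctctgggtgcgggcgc
The Sema3d promoter held ACAAAG at 2 places and neither of the other motifs. The Plxnb3 promoter held CAGCTG at 2 places, ACAAAG at 1 and ACAATG at 2. The Unc5b promoter held ACAATG at 1 place, and the Slit3 window held none of the 3. Of 27025 promoters of this length, 16.1% held CAGCTG, 18.7% ACAAAG and 12.8% ACAATG, and 28.8% held at least 1 of the SOX motifs. Of the 56 guidance genes with an entry, 8 held CAGCTG, 9 ACAAAG and 6 ACAATG, and 13 held at least 1 of the SOX motifs. These matches describe letters in a window and say nothing of binding.

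Levels are given in CPM, the share of a gene in all UMIs of 1 class and library times 1000000, as mean ± SD over the 4 libraries (n = 4). They are not corrected for gene length, so a level is compared only with the same gene in another class. Classes are clusters of the same nuclei, so these levels are a description and were not tested. Each class level is an average over its clusters, and parts of a class can lie above the class named as highest. Of the 66 guidance genes, 60 reached at least 10 UMIs in every library in at least 1 class. The remaining 6, Efna4, Epha1, Epha2, Robo4, Sema3b and Sema3g, did not reach this depth in any class and are not ranked.

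Guidance genes had their highest levels in both neuronal and non-neuronal classes. Among the 11 ranked classes, 21 of the 60 genes were highest in 1 of the 4 neuron classes and 39 in 1 of the other 7, while 22.3% of the 17828 genes that reached the same depth were highest in a neuron class. With nuclei assigned by marker UMIs, which leaves 8 classes, 31 of the 60 were highest in neurons, against 34.5% of all genes. The neuropilins were both highest in neurons, and so were 6 of 12 Eph receptors, 6 of 18 semaphorins, 2 of 3 robos, 2 of 6 netrin genes and 1 of 3 slits, while 8 of 9 plexins and 6 of 7 ephrins were highest outside the mature neurons. The highest class was the same in all 4 libraries for 30 genes, and for 21 of these the lowest library of that class was still above every library of every other class. The OLs held 5 of these 21 genes, LS neurons and OPCs 3 each, and the Dnah12 nuclei and microglia 0. The 4 neuron classes together held 8. The same counts were not taken over all genes, so they describe the members and do not set them apart. The highest class of the other 30 changed with the library, and their neighbouring classes were not separated at this depth.

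**Figure D1:**
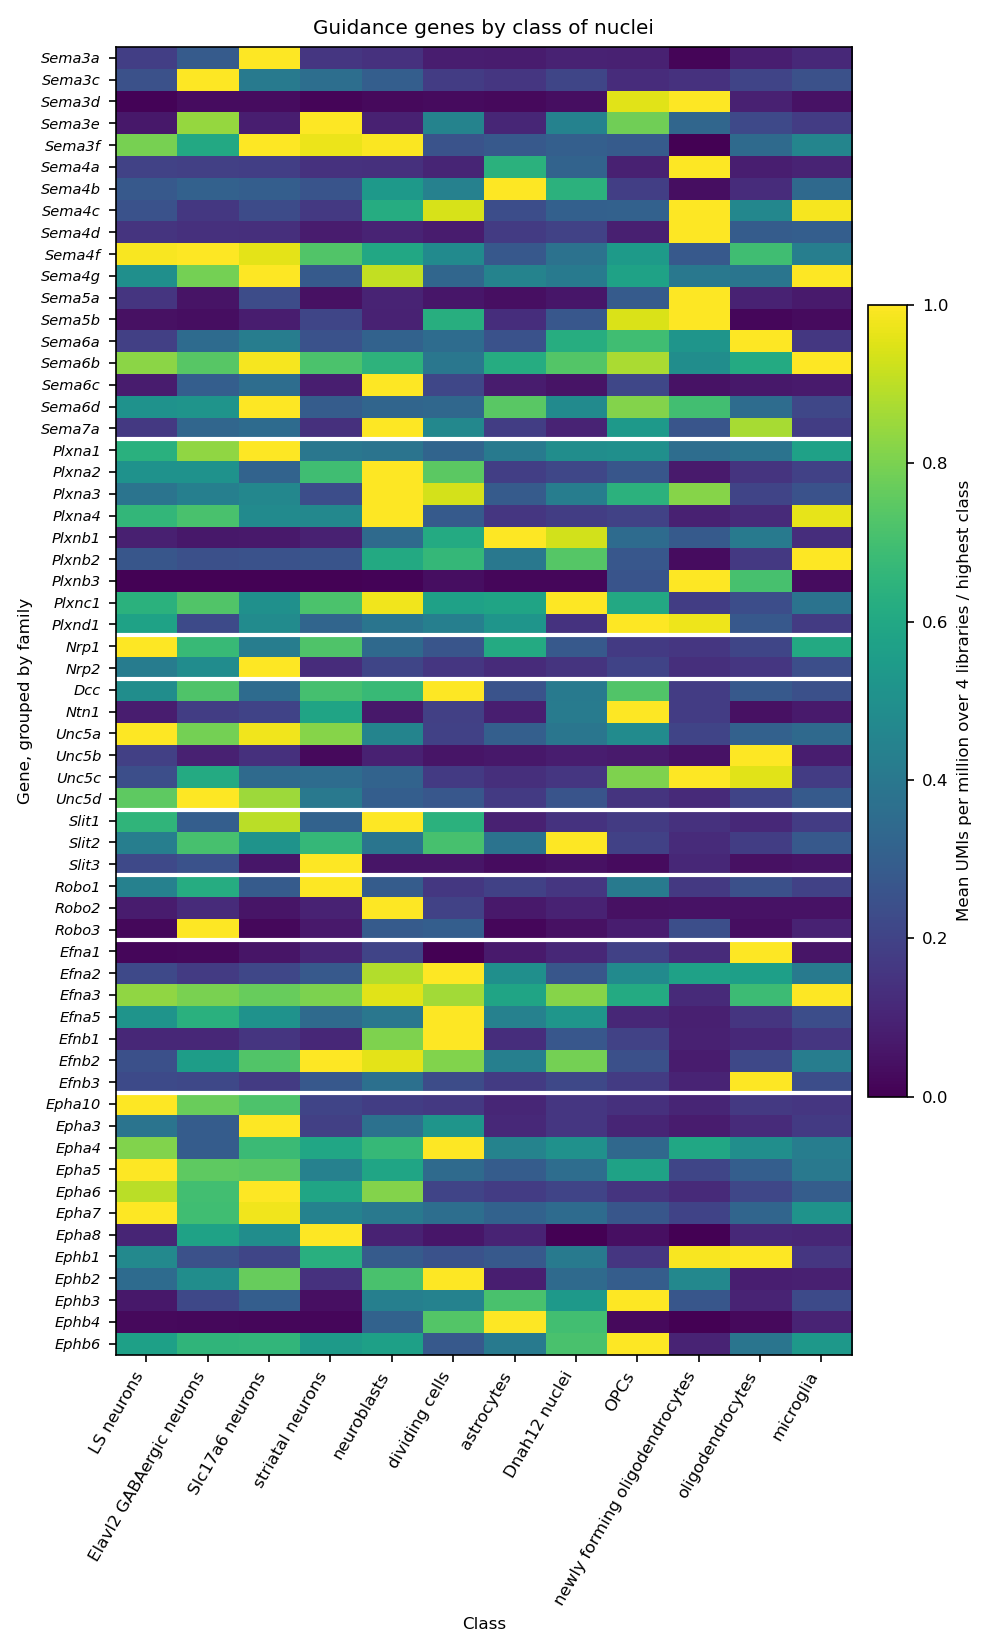
Mean CPM over the 4 libraries of the 60 ranked guidance genes (rows, grouped by family) in 12 classes of nuclei (columns), each row divided by its highest class. Bright cells lie in the columns of OPCs and newly forming oligodendrocytes for Sema3d, of newly forming oligodendrocytes and OLs for Plxnb3, and of OLs for Unc5b. For the neuropilins and Epha5 they lie in neuron columns.

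RNA of neurons was present in the nuclei of other classes and sets the lower limit for reading a neuronal gene there. The neuron markers Snap25, Syt1 and Rbfox3 stood at 7.29% to 44.9% of their LS neuron level in astrocytes, 6.22% to 55.3% in OPCs, 7.55% to 57.9% in OLs and 9.22% to 70.3% in microglia. The BALB/c library was the lowest of the 4 for each marker in each of these classes, with Snap25 in astrocytes at 21.1% against 41.1% to 44.9% in the others. Of the 21 genes highest in neurons, few lay above the highest of these marker shares in all 4 libraries. They were Sema6d and Nrp1 in astrocytes, Sema6d, Sema3e and Sema4f in OPCs, Sema4f in OLs and Efnb2 in Dnah12 nuclei. Sema6d also did so in newly forming oligodendrocytes, and no gene did so in microglia. Levels of neuronal guidance genes under this limit in these classes therefore cannot be told apart from background.

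In the oligodendrocyte lineage several guidance genes lay above every library of every neuron class. Sema3d, a secreted class 3 semaphorin, stood at 413 and 311 CPM in the C57J libraries, 345 in nude and 468 in BALB/c in OPCs. The OPC mean was 384 ± 70.2 CPM, newly forming oligodendrocytes held 170.4 to 695 CPM, and OLs held 36.6 ± 0.732 CPM. No neuron class in any library exceeded 17.2 CPM, so the ranges of OPCs and all neurons lay far apart. Ntn1, the secreted netrin, was also highest in OPCs (251 ± 34.2 CPM), ahead of striatal neurons (147 ± 15.1 CPM) and Dnah12 nuclei (104 ± 9.01 CPM), and was 11.2 ± 5.72 CPM in OLs. The striatal mean joins unlike clusters. Ntn1 was 171 to 249 CPM in the cluster with Prkch and Rarb among its leading genes, which overlapped with OPCs (223 to 301 CPM). In the cluster with Chst9 and Otof it was 15.3 to 47.8 CPM. Sema5b, a transmembrane semaphorin, was 262 ± 24.98 CPM in OPCs and 190.1 to 364 CPM in newly forming oligodendrocytes, and 5.002 ± 1.43 CPM in OLs. Its level in dividing cells (105 to 222 CPM) reached close to the OPC range without overlapping it.

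Newly forming oligodendrocytes carried the highest levels of the semaphorins Sema5a and Sema4d, although few nuclei stand behind them. Sema5a, a ligand of Plxnb3, ranged from 1549 to 1818 CPM in these nuclei, against 486 ± 91.2 CPM in OPCs and 162 ± 30.4 CPM in OLs. Sema4d, a ligand of the B plexins, ranged from 330.2 to 642 CPM there, against 42.01 ± 9.35 CPM in OPCs, 139 ± 22.5 CPM in OLs and 144 ± 7.13 CPM in microglia. Both genes thus had their highest values between the precursor and the mature stage, in all 4 libraries. Sema4a ranged from 68.3 to 170.4 CPM in newly forming oligodendrocytes, which overlapped with astrocytes (70.2 to 89.9 CPM). In OPCs it was 11.7 ± 4.59 CPM and in OLs 10.7 ± 4.599 CPM.

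Plxnb3, the plexin that binds Sema5a, was found along the whole lineage. It was 50.3 ± 9.24 CPM in OPCs, 142 to 273 CPM in newly forming oligodendrocytes and within OLs 147 and 146 CPM in the C57J libraries, 122 in nude and 136 in BALB/c. The highest neuron library held 1.797 CPM, and astrocytes held 3.34 ± 0.927 CPM. Unc5b, a repulsive netrin receptor, had the opposite start: OPCs held 7.01 ± 3.303 CPM, below the LS neurons, and OLs held 96.8 and 111 CPM in the C57J libraries, 77.3 in nude and 94.00 in BALB/c. The next class was the LS neurons with 18.02 ± 1.58 CPM, so that the lowest OL library was 4.05 times the highest library of any other class.

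Of the ephrins and Eph receptors, Efnb3, Efna1 and Ephb1 were highest in OLs among the ranked classes. Efnb3, a transmembrane ephrin, stood at 201 ± 16.9 CPM in OLs against 35.1 ± 12.5 CPM in OPCs, and the OL libraries did not overlap those of any other class. Efna1, a lipid-anchored ephrin, was low in all classes but was highest in OLs in every library (8.94 ± 1.57 CPM). Its 139 UMIs give a pooled level with an exact Poisson interval of 7.99 to 11.2 CPM, which covers counting error only. Ephb1 was highest in OLs (598 ± 86.4 CPM), ahead of the pooled striatal neurons (377 ± 71.5 CPM), and the libraries of these classes did not overlap. The striatal cluster with Prkch and Rarb among its leading genes held 376 to 574 CPM of Ephb1 and overlapped with OLs (497 to 676 CPM). Parts of the LS neurons, given below, held more Ephb1 than OLs. Sema6a, a transmembrane semaphorin with plexin A receptors, was 360.1 ± 81.6 CPM in OLs and 250.2 ± 23.1 CPM in OPCs, with the nude OL library inside the OPC range. Unc5c was 1326 ± 316 CPM in OLs and 1122 ± 205 CPM in OPCs, and these classes overlapped.

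**Figure D2:**
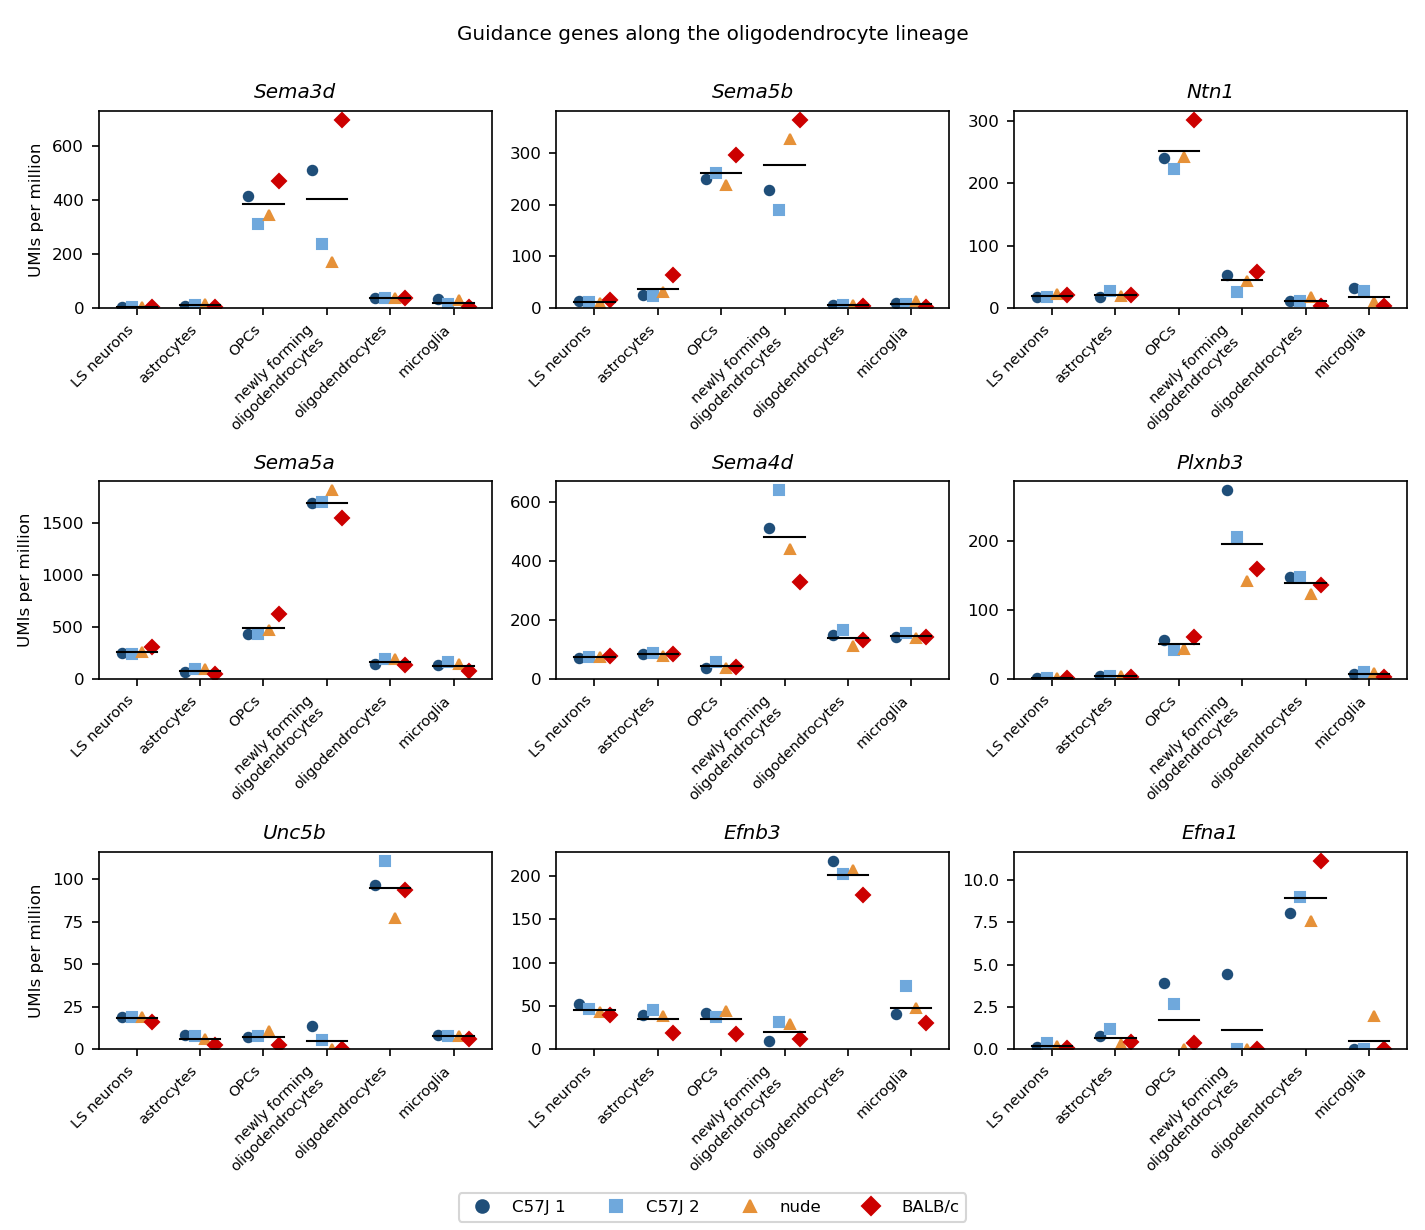
CPM of 9 guidance genes in LS neurons, astrocytes, OPCs, newly forming oligodendrocytes, OLs and microglia; each point is 1 library and each bar the mean of 4. Sema3d, Sema5b and Ntn1 are high in OPCs, Sema5a and Sema4d in newly forming oligodendrocytes, and Unc5b, Efnb3 and Efna1 in OLs, while Plxnb3 is at 41.6 to 60.4 in OPCs and 122 to 147 in OLs.

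In astrocytes, Sema4a stood at 80.1 ± 8.06 CPM and Sema4b at 66.3 ± 8.05 CPM, each above all libraries of the other ranked classes. Plxnb1, a receptor of Sema4d, was 126 ± 24.5 CPM in astrocytes and 117 ± 19.9 CPM in Dnah12 nuclei, which overlapped, and at most 18.6 CPM in a neuron library. Ephb4 was 12.4 ± 3.56 CPM in astrocytes and at most 0.532 CPM in a neuron library. Its astrocyte range overlapped with those of dividing cells (2.68 to 18.2 CPM) and Dnah12 nuclei (3.20 to 15.0 CPM). In microglia, Plxnb2 was 75.8 ± 19.04 CPM and Sema4d 144 ± 7.13 CPM. Plxna4, the receptor complex partner of Nrp1, was 572 ± 129 CPM in microglia and 595 ± 105 CPM in neuroblasts, and the order of these classes changed with the library. Plxnb2 in microglia overlapped with neuroblasts, where it ranged from 16.7 to 85.6 CPM.

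Among the ranked classes the slit receptor Robo2 was highest in neuroblasts and the netrin receptor Dcc in dividing cells. Robo2 reached 2622 and 1975 CPM in the C57J libraries, 1638 in nude and 3786 in BALB/c in neuroblasts. The highest library of any other class was 591 CPM, in dividing cells, so the classes did not overlap, although the neuroblast libraries differed among themselves. Sema6c, a transmembrane semaphorin, was also highest in neuroblasts (48.01 ± 12.1 CPM), and so was Plxna2 (323 ± 75.5 CPM), whose neuroblast range overlapped with that of dividing cells. In dividing cells, Efna5 was 1022 ± 296 CPM against 650.1 ± 61.7 CPM in the Elavl2 neurons, Dcc was 2982 ± 843 CPM, and Efnb1 was 30.9 ± 9.81 CPM against 24.9 ± 10.2 CPM in neuroblasts. Efna5 was the 1 of these 3 without overlap between classes, and only 353 nuclei stand behind this class. Single subclusters of the LS neurons, described below, lay within the dividing-cell ranges. Efna5 was 1249 to 1331 CPM in L2, against 754 to 1401 CPM in dividing cells. Dcc was 3206 to 3997 CPM in L12, against 2194 to 4030 CPM in dividing cells.

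Levels of semaphorin and neuropilin genes differed between the neuron classes, each taken as a whole. Sema3a, the secreted ligand of Nrp1, was highest in the Slc17a6 neurons at 178 and 282 CPM in the C57J libraries, 87.8 in nude and 315 in BALB/c. All of these lay above the next class, the Elavl2 neurons (62.2 ± 6.200 CPM), although the nude library was the lowest and stood close to it. Sema3c was highest in the Elavl2 neurons (68.1 ± 13.1 CPM against 27.8 ± 4.11 CPM in the Slc17a6 neurons). The neuropilins were divided between the classes. Nrp1 was highest in LS neurons with 273 and 279 CPM in the C57J libraries, 289.5 in nude and 299 in BALB/c, and was 207 ± 24.5 CPM in striatal and 121 ± 22.1 CPM in Slc17a6 neurons. Microglia of C57J 1 (262 CPM) came near the lowest LS library. Nrp2 was highest in the Slc17a6 neurons with 357 and 414 CPM in the C57J libraries, 323 in nude and 509 in BALB/c, against 194 ± 29.6 CPM in Elavl2 neurons, 168 ± 32.6 CPM in LS neurons and 50.6 ± 16.8 CPM in striatal neurons. Plxna1 was 30.3 ± 0.805 CPM in Slc17a6 neurons, with 1 Elavl2 library (C57J 1) within that range.

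The netrin receptors were broad in neurons. Dcc was 2157 ± 376 CPM in Elavl2 neurons, 2108 ± 191 CPM in striatal neurons, 1466 ± 111 CPM in LS neurons and 1040.2 ± 126 CPM in Slc17a6 neurons, and 2173 ± 154 CPM in OPCs, which overlapped with striatal neurons and neuroblasts. Unc5d was highest in the Elavl2 neurons in all 4 libraries (1725 ± 221 CPM) with an overlap with the Slc17a6 neurons (1469.8 ± 204 CPM), and LS neurons held 1297 ± 21.4 CPM. Unc5a differed little between neuron classes, with 32.4 ± 2.56 CPM in LS and 31.8 ± 7.73 CPM in Slc17a6 neurons. Unc5c was 852 ± 73.8 CPM in Elavl2 neurons and 332 ± 26.4 CPM in LS neurons, below the OLs and OPCs.

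Slit3 and Robo1 were highest in the striatal neurons. Slit3 stood at 983 and 872 CPM in the C57J libraries, 772 in nude and 1155 in BALB/c in striatal neurons, 237 ± 37.2 CPM in Elavl2 neurons and 209 ± 65.01 CPM in LS neurons, and the lowest striatal library was 2.76 times the highest library of any other class. The striatal clusters differed, with 1120 to 1369 CPM of Slit3 in that with Prkch and Rarb and 267 to 680 CPM in that with Chst9 and Otof. The nude library of the latter (267 CPM) lay below the highest Elavl2 library (280 CPM). Robo1 was 3117 ± 259.7 CPM in striatal neurons, 1934 ± 172 CPM in Elavl2 neurons and 1371 ± 147 CPM in LS neurons, without overlap between the striatal and other libraries. Slit1 was highest in neuroblasts (248 ± 44.5 CPM) and Slc17a6 neurons (222 ± 78.7 CPM), which overlapped, and was 162 ± 9.31 CPM in LS neurons. Slit2 was 521 ± 133 CPM in Dnah12 nuclei, 369 ± 34.3 CPM in Elavl2 neurons and 223 ± 43.7 CPM in LS neurons. Robo3, known from commissural axons, was low, with 14.7 ± 4.55 CPM in Elavl2 neurons and at most 1.36 CPM in the other neuron classes.

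The Eph receptors with their highest level in LS neurons were led by Epha5. It stood at 987 and 1000.3 CPM in the C57J libraries, 1034 in nude and 1088 in BALB/c, above all libraries of the Elavl2 (772 ± 18.2 CPM) and Slc17a6 neurons (763 ± 44.9 CPM), and was 450.3 ± 71.2 CPM in striatal neurons. Epha10, a family member without kinase activity, was 125 ± 22.7 CPM in LS neurons, with its lowest LS library just above the highest Elavl2 library. Epha3 was highest in Slc17a6 neurons in every library (576 ± 217 CPM), but the nude library, at the lower end of 287 to 748 CPM, lay within the range of dividing cells. Epha8 was 12.2 ± 4.296 CPM in striatal neurons and 6.999 ± 1.71 CPM in Elavl2 neurons, with overlap.

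Within the LS neurons the levels of guidance genes differed between subclusters. LS neurons were divided into 24 subclusters, L0 to L23, of 255 to 1587 nuclei, again without the guidance genes, and are called by number with their leading genes. At least 50 UMIs in LS neurons in every library were found for 55 guidance genes. In 53 of them the highest subcluster exceeded the lowest by a median of 6.45 times (range 1.72 to 58.4), and the other 2, Epha8 and Plxnd1, were at 0 in their lowest subcluster. The highest subcluster was the same in all 4 libraries for 20 of the 55. These ratios and counts were not taken over all genes, so they describe the members and do not set them apart.

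The 3 slits varied by 21.8 times (Slit1), 38.6 times (Slit2) and 25.1 times (Slit3), and the receptors Robo1 and Robo2 by 11.1 and 7.10 times. Slit1 was highest in L5 (leading genes Mctp2 and Pcsk6) with 428 ± 42.2 CPM and lowest in L22 (Cpa6 and Pappa) with 19.6 ± 9.82 CPM. Slit2 was 793 ± 144 CPM in L13 (Tshz2) and 712 ± 175 CPM in L10 (Drd3), which overlapped, and 20.5 ± 8.97 CPM in L0 (Col15a1 and Matn2). Slit3 was highest in L0 (462 ± 99.6 CPM), where Slit2 was lowest, and was 18.4 ± 5.36 CPM in L19 (Foxp2 and Samd5). Robo1 was highest in L9 (Eya4 and Pax6), with 4932 and 4383 CPM in the C57J libraries, 4639 in nude and 4660.2 in BALB/c, against 2924 ± 195 CPM in the next subcluster, L17 (Phex), and 417 ± 56.6 CPM in L7 (Etv1 and Nts). Robo1 in L9 exceeded the striatal neurons as well.

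Among the semaphorins the ratio of the highest to the lowest subcluster ran from 1.72 (Sema6b) to 58.4 (Sema3a). Sema3a was 302 ± 18.9 CPM in L12 (Rmst and Sox6) and 281 ± 48.5 CPM in L17, which overlapped, and 5.18 ± 2.66 CPM in L0. The L12 and L17 means were above that of the Slc17a6 neurons (216 CPM). The ranges of L12 (287 to 330 CPM) and the Slc17a6 neurons (87.8 to 315 CPM) overlapped. L12 had the highest Elavl2 of the 24 subclusters (434 CPM pooled over libraries), with Trpc4 at 473 and Dgkg at 299 CPM. Whether the nuclei of L12 are LS neurons was not tested. Sema3e, a class 3 semaphorin that signals through Plxnd1, was 41.9 ± 4.74 CPM in L22 and 1.22 ± 1.15 CPM in L14 (Pth2r). Sema5a was highest in L17 (692 ± 52.1 CPM) and lowest in L19 (41.7 ± 11.05 CPM). Sema6c was highest in L21 (Angpt1 and Adra1a) at 9.25 to 24.7 CPM, and lowest in L0 (1.26 ± 0.450 CPM). Sema3d in L21 rests on C57J 1, where it was 106 CPM, against 7.90 to 13.9 CPM in the other 3 libraries.

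Eph receptors and Unc5b each had their own subclusters. Epha4, a receptor for ephrins of both classes, was highest in L4 (Met and Stac2) with 594 and 578 CPM in the C57J libraries, 601 in nude and 674 in BALB/c, and lowest in L9 (47.7 ± 11.9 CPM). Ephb1 was highest in L11 (Dach2 and Gpr139) with 879.9 ± 101 CPM and in L8 (Pde1c and Tacr1) with 770.1 ± 46.4 CPM, and was 76.1 ± 21.4 CPM in L12. The L11 libraries (793 to 1025 CPM) all lay above those of OLs (at most 676 CPM). Epha7 was highest in L17 (562 ± 71.2 CPM) and lowest in L20 (Sv2b and Zeb2) with 50.1 ± 9.098 CPM. Unc5b was 57.8 ± 14.00 CPM in L5 and 43.1 ± 4.01 CPM in L0, below its level in OLs, and 2.65 ± 1.17 CPM in L19.

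**Figure D3:**
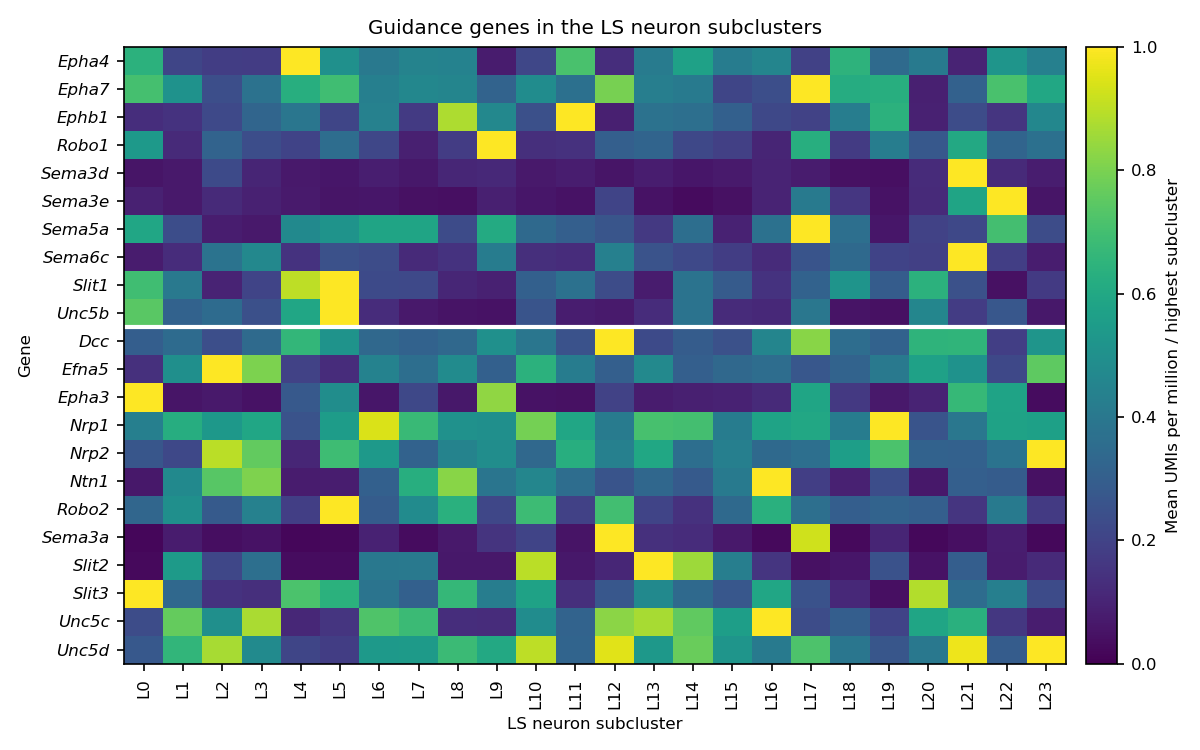
Mean CPM over 4 libraries of guidance genes in the 24 LS neuron subclusters, each row divided by its highest subcluster. The 10 upper rows are those with the widest range and the same highest subcluster in every library, the lower rows are further members, and the bright cells fall in different subclusters for Slit1 (L5), Epha4 (L4), Robo1 (L9) and Sema5a (L17).

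Differences between the backgrounds were tested with edgeR's quasi-likelihood F test (two-sided) on UMIs summed per library and class, both C57J libraries against nude and BALB/c, with a call where the adjusted p was under 0.05 and the log2 fold change over 0.5 in size. Fold changes are those of the BALB/c background over C57J. For 2 libraries against 2, the smallest p of an exact permutation test is 0.333, and each library is a pool of mice, so p-values measure the spread between these 4 pools, part of which may be technical.

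Few guidance genes passed this test in a whole class. In LS neurons 1 of 62 tested guidance genes was called, against 2.33% of all genes (0.971% higher and 1.36% lower on the BALB/c background), and 12 of 62 had an unadjusted p below 0.05, against 14.7% of all genes. Both non-C57J libraries lay above both C57J libraries for 13 of the 62 and below them for 18, against 18.9% and 26.4% of all genes. In striatal neurons 1 of 54 was called (0.495% of all genes, 0.259% higher and 0.236% lower), and 8 lay above and 12 below without overlap, against 16% and 21.3% of all genes. These shares of members were close to those of all genes. None was called by edgeR in the Elavl2 neurons (0 of 58, 0.755% of all genes, 5 with an unadjusted p below 0.05 against 11.4% of all genes) or Slc17a6 neurons (0 of 56, 0.396%, 10 against 8.38%). The same held for neuroblasts (0 of 37, 0.0306%, 3 against 5.95%), dividing cells (0 of 33, 0% of all genes, 1 against 3.24%), astrocytes (0 of 57, 0.145%, 7 against 7.46%), OPCs (0 of 52, 0.379%, 5 against 7.54%), OLs (0 of 54, 0.00792%, 1 against 5.2%) and microglia (0 of 39, 0% of all genes, 3 against 4.94%). DESeq2 called 1 guidance gene in the Slc17a6 neurons and none in the other classes where edgeR called none. In LS neurons 4 of 62 guidance genes were called without C57J 2 (Epha10, Nrp2, Slit2 and Slit3, against 6.25% of all genes) and 2 of 63 without nude (Epha3 and Slit3, against 1.01%), and in Slc17a6 neurons 2 of 56 without BALB/c (0.698% of all genes) and 3 of 56 without nude (0.938%). Without the nude library, 16 of 58 guidance genes were also called in astrocytes (8.27% of all genes), 10 of 55 in OLs (5.85%), 8 of 53 in OPCs (4.18%), 7 of 41 in microglia (2.23%) and 2 of 40 in neuroblasts (2.03%). That fit sets the BALB/c library, where neuron RNA in these classes was lower than in C57J, alone against C57J. The part of neuron RNA in those calls was not tested.

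Slit3 was lower on the BALB/c background in LS neurons. It stood at 266 and 265 CPM in the C57J libraries, 163 in nude and 144 in BALB/c (log2 -0.77, SE 0.0810, adjusted p = 0.00685, edgeR). Both C57J libraries lay above both others, and the call was kept without each of the 4 libraries in turn and under every other setting tried. Slit3 was not called in striatal neurons, where it is highest (983 and 872 CPM against 772 and 1155 CPM, log2 0.08, SE 0.190), nor in Elavl2 neurons (197 and 280.0 CPM against 217 and 255 CPM), and the groups overlapped in both. Because striatal neurons carry so much Slit3, their markers were read in the LS neurons. Rarb stood at 44.1 and 34.6 CPM in the C57J libraries, 29.03 in nude and 25.4 in BALB/c, and the 7 striatal markers summed to 581 and 527 CPM in the C57J libraries, 593 in nude and 684 in BALB/c. The sum was thus not lower on the BALB/c background, and most of it was Pde10a, which LS neurons held at 31.4% to 50.1% of its striatal level. Rarb, at 1.78% to 3.07% of its striatal level, was lower in both non-C57J libraries, and so were Drd1 and Adora2a. The part of striatal RNA in the Slit3 difference was not tested. The mix of subclusters within the LS neurons also differed between libraries, with 190 nuclei of L0 in BALB/c against 455 and 470 in C57J and 472 in nude. The part of this mix was not tested either.

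Slit1 was higher on the BALB/c background in striatal neurons. It stood at 48.3 and 53.6 CPM in the C57J libraries, 119 in nude and 89.4 in BALB/c (log2 1.05, SE 0.164, adjusted p = 0.0401, edgeR). The groups did not overlap, and the order was the same in each of the 2 striatal clusters, at 57.3 and 61.3 CPM against 157 and 105 CPM in the cluster with Prkch and Rarb among its leading genes and 33.9 and 40.5 CPM against 64.3 and 55.4 CPM in that with Chst9 and Otof. The call was lost without each of the 4 libraries in turn (adjusted p = 0.0526 to 0.205, edgeR) and with nuclei assigned by marker UMIs. In LS neurons Slit1 was 163 and 160.3 CPM against 174 and 151 CPM, with overlap (log2 0.03, SE 0.0861).

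Nrp2 and Sema6d did not reach the threshold in the following classes, although the groups did not overlap. Nrp2 was 130.0 and 156 CPM against 182 and 205 CPM in LS neurons (log2 0.46, SE 0.104, adjusted p = 0.0860, edgeR), and both non-C57J libraries were above both C57J libraries. Sema6d, a ligand of Plxna1, was 672 and 679 CPM against 898 and 961 CPM in Elavl2 neurons (log2 0.47, SE 0.0888, adjusted p = 0.0687, edgeR) and 1184 and 1184 CPM against 1587 and 2268 CPM in Slc17a6 neurons (log2 0.72, SE 0.164, adjusted p = 0.171, edgeR). Neither passed this edgeR test with its filter on low counts and all 4 libraries. In Slc17a6 neurons, Sema6d was the 1 guidance gene called by DESeq2, and edgeR called it without that filter.

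Related genes of the same pathways were read from 2 lists. Of 45 effectors of guidance receptors, 45 were tested in LS neurons and 1 was called, higher, with a median log2 fold change of 0.03 against -0.01 over all genes. This was Vav3, a guanine nucleotide exchange factor, with 21.1 and 17.4 CPM against 31.2 and 39.6 CPM (log2 0.90, SE 0.166, adjusted p = 0.0475, edgeR). In striatal neurons Vav3 was the 1 effector called of 42, with the opposite sign, at 72.6 and 68.3 CPM against 27.2 and 24.7 CPM (log2 -1.43, SE 0.159, adjusted p = 0.0116, edgeR). Of 35 other cues, co-receptors and adhesion partners, 33 were tested in LS neurons and 1 was called, higher. This was Ntn4, a netrin that binds laminins, with 25.2 and 30.6 CPM against 46.3 and 57.9 CPM (log2 0.93, SE 0.144, adjusted p = 0.0269, edgeR). In astrocytes Ntn4 was 27.8 and 27.9 CPM against 65.6 and 90.5 CPM (log2 1.57, SE 0.228, adjusted p = 0.0971, edgeR), which did not pass. No gene of these lists was called by edgeR in the other 8 classes.

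The same contrast was then fitted in each LS neuron subcluster, a step added after the result for the whole class had been seen. Over the 24 subclusters, 38 of 1096 tests of guidance genes were called (3.47%), against 1.09% of the 257048 tests of all genes. These calls fell on 15 genes, 13 calls in the higher and 25 in the lower direction (0.493% and 0.598% of all tests), and their number was 115 of 1150 (2.27% of all tests) without the nude library. Tests of a gene in several subclusters use the same 4 libraries, so the calls are not independent of each other. The adjusted p corrects within 1 subcluster. Corrected over all subclusters together, it was above 0.05 for some of the calls (edgeR). They were Robo2 in L19 (0.0537), Slit1 in L8 (0.0559), Nrp2 in L5 and L18, Epha6 and Sema6a in L0, and Epha3 in L5 (0.0753). The shares were not matched for expression level, on which the power of the test depends.

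Slit3 held 11 of the 38 calls within subclusters. It was lower on the BALB/c background in L4, L5, L6, L8, L9, L10, L11, L14, L17 and L23 and higher in L21. In L8 it was 487 and 463 CPM against 138 and 139 CPM, a log2 fold change of -1.73 (SE 0.110, adjusted p = 9.54e-06, edgeR). In L5 it was 440.3 and 478 CPM against 156 and 105 CPM (log2 -1.78, adjusted p = 0.000286, edgeR). In both, the groups were more than 2-fold apart. In L21 the order was turned, with 63.9 and 99.4 CPM against 221 and 272 CPM (log2 1.67, SE 0.214, adjusted p = 0.000369, edgeR). L21 had the lowest Trpc4 and Dgkg of the 24 subclusters (314 and 294 CPM pooled over libraries), with Elavl2 at 338 CPM. A cluster with Elavl2 among its leading genes held 290, 256 and 429 CPM of these genes. Whether the nuclei of L21 are LS neurons was not tested. For Slit3, both non-C57J libraries lay below both C57J libraries in 18 of 24 subclusters and above them in 1, and the groups overlapped in 5. Over all genes and subclusters tested, 22.5% lay below and 17.4% above. L0 and L20 (Sv2b), the subclusters with the most Slit3, were not called, at 530.3 and 552 CPM against 429 and 336 CPM in L0 and 525 and 423 CPM against 387 and 301 CPM in L20.

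**Figure D4:**
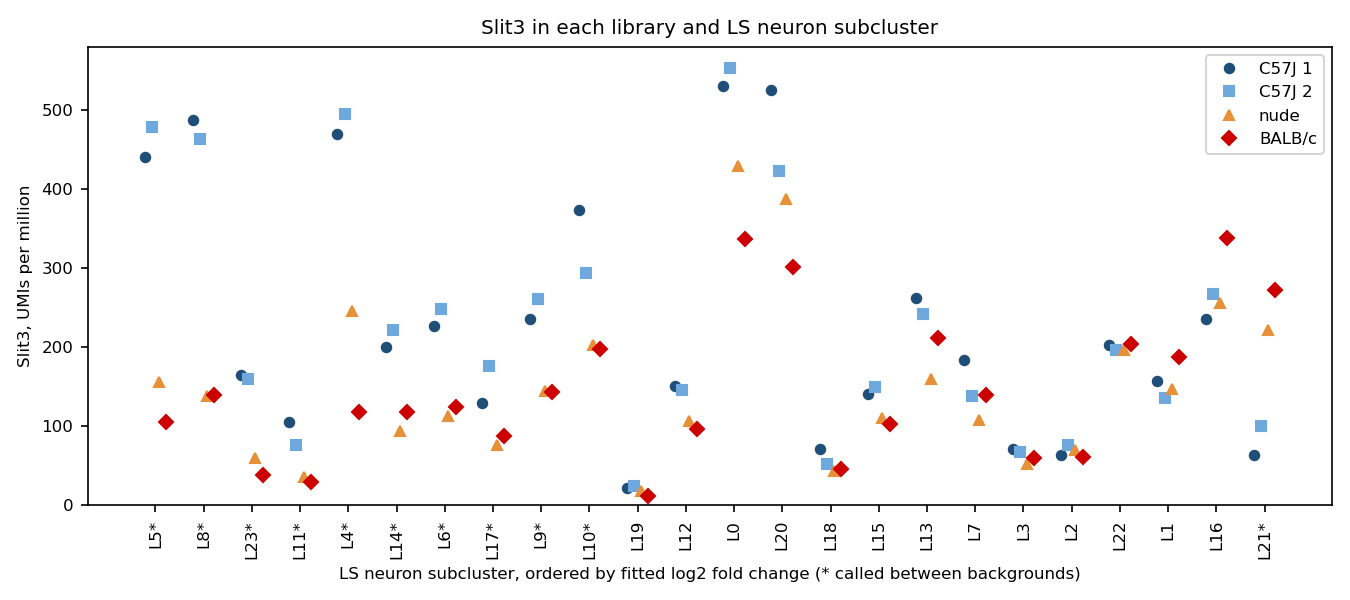
Slit3 in CPM in the 24 LS neuron subclusters, ordered by the fitted log2 fold change of nude and BALB/c over C57J; each point is 1 library and a star marks subclusters called. In L5 and L8, at the left, both C57J libraries are at 440 or above and the other libraries at 156 or below, and in L21, at the right, the order is turned.

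The contrast of Slit3 also differed between subclusters when this was tested directly, each subcluster against the other LS neurons with the library as a term. The other LS neurons were pooled, so their contrast also carries the mix of subclusters in each library. L0, with the most Slit3, held 455 and 470 nuclei in the C57J libraries, 472 in nude and 190 in BALB/c. The part of this mix in the differences was not tested. Over all subclusters 60 of 1398 such tests of guidance genes were called (4.29%), against 0.374% of 424136 tests of all genes, and 10 of the 60 fell on Slit3. These shares were not matched for expression level, on which the power of the test depends. Corrected over all subclusters together, the adjusted p was 0.0534 for Sema5b in L10 and 0.0538 in L7 (edgeR). The 60 calls became 107 of 1438 without nude (0.84% of all tests) and 37 of 1446 without BALB/c (0.206%), and those on Slit3 ranged from 7 to 12 without each library in turn. The contrast was lower than in the other LS neurons in L4, L5, L8, L11 and L23, and higher in L1, L2, L16, L21 and L22. It was farthest in L21 (difference 2.52 on the log2 scale, SE 0.183, adjusted p = 1.03e-38, edgeR). With the library as a term few residual degrees of freedom remain, so this p rests on a spread shared over genes. It does not measure the spread between mice.

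Slit1 and Slit2 were called in fewer subclusters than Slit3, in part the same ones. Slit1 was higher on the BALB/c background in L3 (Esr1), L8 and L19, with 61.5 and 64.7 CPM against 103 and 123 CPM in L3 (log2 0.86, adjusted p = 0.0169, edgeR). Slit2 was lower in L10, L15 (Ccdc141), L19 and L21, with 463 and 462 CPM against 243 and 191 CPM in L15 (log2 -1.06, adjusted p = 0.000834, edgeR). L8 thus carried less Slit3 and more Slit1, and L19 more Slit1 and less Slit2. Among the robos, Robo2 was lower in L19, at 163 and 199 CPM against 87.8 and 120.3 CPM (log2 -0.73, adjusted p = 0.0499, edgeR). Without each library in turn, the call of Robo2 was kept in 1 of 4 fits, those of Slit1 in L3 and L19 in 2, those of Slit1 in L8 and Slit2 in L10, L19 and L21 in 3, and that of Slit2 in L15 in 4.

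Of 10 calls of Eph receptors, 9 were lower and 1 higher on the BALB/c background. Epha10 was called in L4, with 176 and 185 CPM against 105 and 82.7 CPM, and in L5, with 184 and 194 CPM against 76.6 and 52.6 CPM (log2 -1.52, adjusted p = 0.000725, edgeR). Epha6 was lower in L0, L19, L22 and L23, Epha3 in L5 and L21, and Epha4 in L17. Epha6 in L22 stood at 3638 and 3398 CPM against 2504 and 2139 CPM (log2 -0.61, adjusted p = 0.00873, edgeR). Ephb1 went the other way in L5, with 150.5 and 134 CPM against 219 and 231 CPM (log2 0.70, adjusted p = 0.00798, edgeR). The calls of Epha10, Ephb1 and Epha6 in L23 were kept in all 4 fits without 1 library, that of Epha3 in L21 in 3, those of Epha6 in L22, Epha3 in L5 and Epha4 in 2, and those of Epha6 in L0 and L19 in 1.

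Of the semaphorins and neuropilins, Sema5a, Sema6a, Sema5b and Nrp2 were called in a subcluster. Sema5a was higher in L1 (Ndst4), L5 and L10, with 137 and 161 CPM against 302 and 350.1 CPM in L10 (log2 1.17, adjusted p = 0.00389, edgeR). Sema6a was higher in L0, a call lost without each library in turn, and Sema5b was lower in L6 (Car10), where its level was low, at 7.86 and 12.9 CPM against 0.882 and 2.25 CPM, a call kept in 1 of 4 such fits. Nrp2 was called higher in L5 and L18 (Etv1 and Plpp4), with 211 and 224 CPM against 286 and 316 CPM in L5 (log2 0.51, adjusted p = 0.0339, edgeR), calls that were kept in 1 and 2 of 4 fits. Its mean was higher on the BALB/c background in 24 of 24 subclusters, a count not taken over all genes. Both non-C57J libraries were above both C57J libraries in 19 of them, against 17.4% of all genes and subclusters tested. The subclusters share the same 4 libraries, so these counts are not independent of each other. In LS neurons as a whole, with all libraries, Nrp2 was not called. Of the netrin receptors, Unc5c was higher in L21 (359 and 224 CPM against 618 and 540.1 CPM, log2 0.97, adjusted p = 0.00876, edgeR) and Unc5d in L3 (979 and 916 CPM against 1352 and 1387 CPM, log2 0.55, adjusted p = 0.00703, edgeR). The call of Unc5c was kept in 4 of 4 fits and that of Unc5d in 2, and those of Sema5a in 3 (L5 and L10) and 4 (L1). L5 held calls of 6 of the 15 genes, more than any other subcluster (2.68% of all genes were called there). Clustering at resolution 2 gave finer groups that shared the markers Cpa6, Col6a3 and Met with L5. The larger group drew 211 and 241 nuclei from the C57J libraries, 237 from nude and 148 from BALB/c. The smaller group drew 79 and 103, against 163 and 135. Their overlap with L5 and the part of such a mix in the L5 calls were not tested. In the edgeR fits within single subclusters, Dcc, Ntn1, Nrp1, Robo1 and Epha5 were called in none of the subclusters tested.

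**Figure D5:**
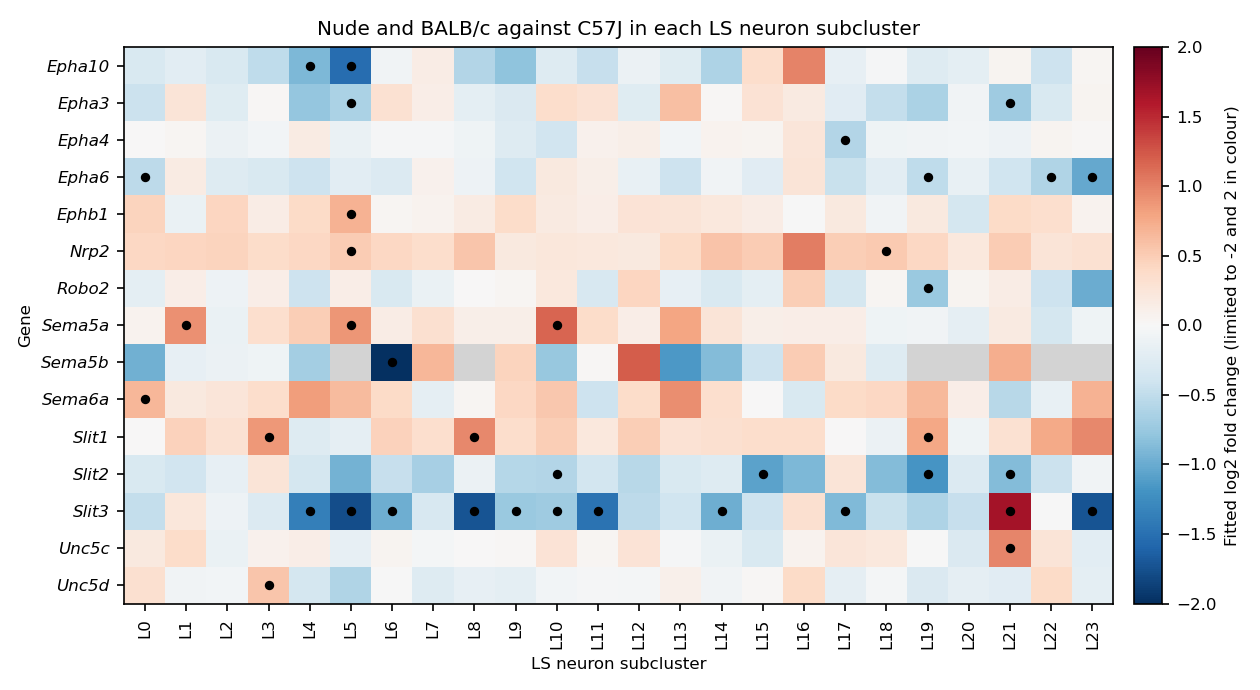
Fitted log2 fold change of nude and BALB/c over C57J for the 15 guidance genes called in at least 1 of the 24 LS neuron subclusters; red is higher and blue lower on the BALB/c background, grey was not tested, and a black dot marks a call. Slit3 is blue in most columns with 10 dots, and red with a dot in L21.

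Nude and BALB/c are 1 library each and were not tested against each other. The Slit3 level of BALB/c was the lower of the pair in LS neurons and, among the subclusters called, in L4, L5, L9, L10, L11 and L23, and the higher in L6, L8, L14, L17 and L21. C57J 1 is of another batch, and without it, so that the contrast lies within batch 2, Slit3 remained called in LS neurons. In the 11 subclusters with a Slit3 call, 9 calls were kept without each library in turn, and those in L10 and L17 in 3 of 4 cases.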

How the data were processed

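Per the labels and the study's methods, Cell Ranger 7.0.1 was run against mm10. The authors deposited its filtered output, in which each value is the raw UMI count of 1 gene in 1 barcode. Whether intronic reads were counted is not given in the sources used here. Barcodes entered with 200 to 6000 genes, 300 to 50000 UMIs and a mitochondrial share under 2%. Doublets were predicted from 2 simulated doublets per nucleus on 30 components of 2000 genes and removed at 0.8% per 1000 nuclei. The 4 libraries were clustered together (6 nearest nuclei from every library, 40 components of 3000 genes, Leiden resolution 1) without the 71 matched genes, 270 genes that differed between backgrounds, 6 sex-linked genes and mitochondrial genes. The RPCA integration of the study was replaced by this step.

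A mixed cluster of 833 nuclei, a Drd3- and Rarb-marked cluster of 413 nuclei (312 from C57J 1) and 28 vascular nuclei were left out. UMIs were summed per library and class with at least 50 nuclei in every library, and tested with edgeR 4.0.16 in R 4.3.3 (filterByExpr, TMM, quasi-likelihood F test, Benjamini-Hochberg over all genes of the class). The study tested single nuclei with the same limits on adjusted p and fold change. The fits of single LS neuron subclusters had no minimum of nuclei. L23 held 61 and 73 nuclei in the C57J libraries, 79 in nude and 42 in BALB/c. The fits were tested on simulated data. Clustering used Python 3.11.15, scikit-learn 1.9.0 and leidenalg 0.10.2, and DESeq2 1.42.0 was an alternative. Other alternatives were RLE size factors, no filter on low counts, no fold-change limit, doublets kept, over 500 genes and 1000 UMIs per nucleus, classes gated by marker UMIs, nuclei thinned to 1000 UMIs, means over nuclei, LS subclusters at resolution 2, and each library left out.

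The genes, the lists and the tests were chosen with earlier results of these data known. Named with values were the members called in a tested class, up to 2 members per family and class that were highest there in all 4 libraries with the widest gap to other classes, 14 netrin, slit, robo and neuropilin genes whatever their values, and the 10 genes with the widest range over LS subclusters and the same highest subcluster in every library. Values given outside this rule (Sema4d, Plxna4, Plxnb1, Plxnb2, Ephb4 and Sema6d, and the genes called within single subcluster fits) were picked after they were seen. Genome positions are those of GENCODE vM21, matched by gene ID, and 56 of the 66 genes had an entry in the RefSeq promoter table.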

Additional observations from a re-analysis of the deposited data

Results flagged for a closer look

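The background contrast of 10 guidance genes differed between an LS neuron subcluster and the remaining LS neurons by a direct test (edgeR, library as a term), in 21 cases in which the contrast within the subcluster was called as well. Cases that met both rules were not counted over all genes, so these counts describe the members and do not set them apart. Values are log2 differences of the contrast of the BALB/c background over C57J, negative where the subcluster lay lower than the other LS neurons. These tests were added after the class result had been seen, and other differences that passed without a call within the subcluster are not listed. The remaining LS neurons were pooled, and the part of their mix of subclusters, which differed between libraries, was not tested. The part of any mix of finer groups within a subcluster was not tested either.

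Slit3 had 6 of them. The difference was -0.74 in L4, -1.10 in L5, -1.01 in L8, -0.71 in L11 and -0.94 in L23, and 2.52 in L21, where Slit3 was higher on the BALB/c background. Those in L5, L8 and L21 remained without each library in turn, while L11 and L23 did so in 1 of 4 cases. Among the other slits, Slit1 differed by 0.87 in L3, 0.93 in L8 and 0.77 in L19, and Slit2 by -0.71 in L15 and -0.83 in L19. L19 also held Robo2, with -0.77.

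Sema5a, which is not called in LS neurons as a whole, differed upward in L1 (0.72), L5 (0.68) and L10 (1.03). Sema5b differed by -2.66 in L6, where it stood at 7.86 and 12.9 CPM against 0.882 and 2.25 CPM. Of the netrin receptors, Unc5c differed by 0.91 in L21 and Unc5d by 0.56 in L3. Of the Eph receptors, Epha10 differed by -0.58 in L4 and -1.22 in L5, and Epha6 by -0.72 in L23, the smallest subcluster with 255 nuclei. In L23, 42 nuclei came from BALB/c.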

How the results depend on the processing

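The count of guidance genes called by edgeR in LS neurons was 1 under every setting that kept all libraries, and ranged from 1 to 4 without each library in turn. In striatal neurons the 1 call was lost with marker-gated classes (0) and without each library (0 to 0). In Slc17a6 neurons, where none was called, DESeq2 called 1, the fit without a filter on low counts 3, and the fits without a library 0 to 3. Without the filter 1 gene was called in each of astrocytes, OPCs and microglia, and with doublets kept 1 in microglia. Without each library in turn, the counts ranged from 0 to 2 in neuroblasts, 0 to 16 in astrocytes, 0 to 8 in OPCs, 0 to 10 in OLs and 0 to 7 in microglia, each highest without nude. Over LS subclusters, calls ranged from 31 to 115 without each library, and calls on the difference between subclusters from 37 to 107. The cause of these changes was not tested.

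In LS neurons the sign of 9 near-zero log2 fold changes turned. Robo2 (0.03) became -0.055 with marker-gated classes, and Unc5a (-0.0025) became 0.0028 with DESeq2, 0.0029 with RLE size factors and 0.00083 without the filter. Without each library in turn, Dcc ranged from -0.12 to 0.076, Robo1 from -0.25 to 0.090, Robo2 from -0.0056 to 0.059, Robo3 from -0.56 to 0.12, Slit1 from -0.052 to 0.13, Unc5a from -0.15 to 0.17, Unc5b from -0.22 to 0.0083, Unc5c from -0.015 to 0.28 and Unc5d from -0.0028 to 0.056. None of these passed the threshold.

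The class with the highest level was kept by 49 to 59 of the 60 genes under the alternatives, lowest with marker-gated classes, which hold no neuroblasts, dividing cells or Dnah12 nuclei and place 31 genes highest in neurons instead of 21. Of the 10 genes named for LS subclusters, 8 kept their highest subcluster at resolution 2, and 10 did so with means over nuclei and without each library in turn. No paired analysis was possible because nude and BALB/c hold 1 library each, and the numbers of the C57J libraries pair no samples. Depth per class and library ranged from 170037 UMIs (dividing cells) to 61164643 (LS neurons) among the classes tested, and guidance genes under the filter in the shallow classes could not be tested there.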
